A study of Mus musculus with 7 samples.

Results

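Aminoacyl-tRNA synthetases are the enzymes that attach each amino acid to its matching transfer RNA. The set described here held 36 genes of the 23337 in the deposited count table, chosen by symbol: 20 cytosolic synthetase genes and 16 mitochondrial ones, whose symbols end in 2. All 36 had enough counts to be among the 12561 genes tested, and the rule that chose them used no measured value, although the set was proposed with earlier results of these data known. RNA was sequenced from cardiomyocytes, the contractile cells of the heart, of mice at postnatal day 30 (P30, 3 libraries) and at postnatal day 6 (P6, 4 libraries). Animals of both ages carried Rosa-Tom or Rosa-Cas9, alleles at the Rosa26 locus that are switched on by Cre recombinase, and the labels do not say which allele each animal had. Both ages had received AAV9-cTNT-Cre on day 1, a virus that drives Cre from the cardiac troponin T promoter, and the heart was perfused with collagenase and its fluorescent cells were sorted. Age and time since the virus cannot be told apart, because the virus was given on the same day to both groups.

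Cytosolic synthetases charge the transfer RNAs used by ribosomes that translate nuclear messages. Most mitochondrial synthetases are separate nuclear genes whose products are imported to charge the transfer RNAs encoded by mitochondrial DNA, which serve the respiratory chain subunits made inside the organelle. In mammals lysyl- and glycyl-tRNA synthetase (Kars and Gars) come from single genes that supply both compartments. Glutaminyl-tRNA of mitochondria is made indirectly: glutamate is attached first and is then amidated by a complex of Gatb, Gatc and Qrsl1. Several cytosolic synthetases sit together in the multisynthetase complex, held by the scaffold proteins Aimp1, Aimp2 and Eef1e1.

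Total counts per library ran from 15555469 to 19368717 at P30 and from 10594932 to 51427646 at P6. The least counted synthetase library value was 98 reads, for Pars2, and the other 35 genes had at least 137 reads in every library. The cardiomyocyte markers, among them Myh6 and Tnnt2, summed to 94252 to 96988 CPM at P30 and 63263 to 75604 CPM at P6 (CPM, counts scaled to TMM-adjusted library size). Markers of other cells also differed between the ages. By the edgeR test described below, 26.3% of all tested genes were higher at P30. Of 8 endothelial markers 6 were higher at P30, and their sum was 307 to 589 CPM at P30, against 108 to 215 CPM at P6. Of 8 macrophage and leukocyte markers 7 were higher, with sums of 12.7 to 40.3 CPM at P30 and 1.95 to 5.32 CPM at P6. Of 10 immediate early genes, which respond to tissue dissociation, 9 were higher, with sums of 1935 to 3389 CPM at P30 and 380 to 514 CPM at P6. Of 7 smooth muscle and pericyte markers 3 were higher and 1 lower, beside 27.8% of all tested genes lower. Their sums overlapped between the ages, at 952 to 1805 CPM at P30 and 979 to 2187 CPM at P6. Fibroblast marker sums overlapped between the ages (137 to 313 CPM at P30, 158 to 391 CPM at P6). So did epicardial marker sums (4.41 to 7.37 CPM at P30, 1.45 to 7.62 CPM at P6). Erythroid marker sums were low and overlapped too (0.701 to 4.07 CPM at P30, 2.40 to 10.7 CPM at P6). In that list Hba-a1 and Hba-a2 were at 0 in all libraries, Hbb-bt was not found in the count table, and only 1 of 6 genes was tested. The low sums therefore cannot show how much erythroid RNA was present. The part of these other cells and of dissociation in the synthetase values was not tested. In sorted pools, fewer cells of a type and less RNA per cell cannot be told apart. The labels do not say whether libraries came from separate animals, so a p-value here reflects only how much the 7 libraries vary, and part of that variation may be technical.

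The comparison asked how synthetase transcripts in cardiomyocytes at P30 differed from those at P6. In both compartments the differences that passed the test were mostly rises of under 2-fold. Of the 20 cytosolic genes, 8 were higher at P30, none was lower and 12 did not pass (quasi-likelihood test in edgeR, with p-values adjusted by Benjamini-Hochberg over all tested genes and a threshold of 0.05). Of the 16 mitochondrial genes, 10 were higher, 1 was lower and 5 did not pass. Among all tested genes 26.3% were higher and 27.8% were lower by the same rule. The share of members called higher was 40.0% for cytosolic genes and 62.5% for mitochondrial genes. The median log2 fold change, P30 over P6, was 0.17 for the cytosolic and 0.31 for the mitochondrial genes, beside -0.02 for all tested genes. All P30 libraries lay above all P6 libraries for 9 cytosolic and 10 mitochondrial genes, beside 27.8% of tested genes, and below them for 1 of each, beside 28.8%.

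These counts depended on how libraries were scaled. With plain library totals in place of TMM factors, the median of all tested genes was -0.20. By that scaling 2408 of the 12561 tested genes passed as higher at P30 and 4658 passed as lower. Beside this background, 2 of the 20 cytosolic genes passed as higher and 2 as lower. Of the 16 mitochondrial genes, 4 passed as higher and 2 as lower. Against that shifted median, the class medians were -0.01 for cytosolic and 0.13 for mitochondrial genes. Iars, Mars, Hars2, Cars2, Tars2 and Mars2 were higher, and Ears2 lower, in all 14 alternative fits.

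**Figure D1:**
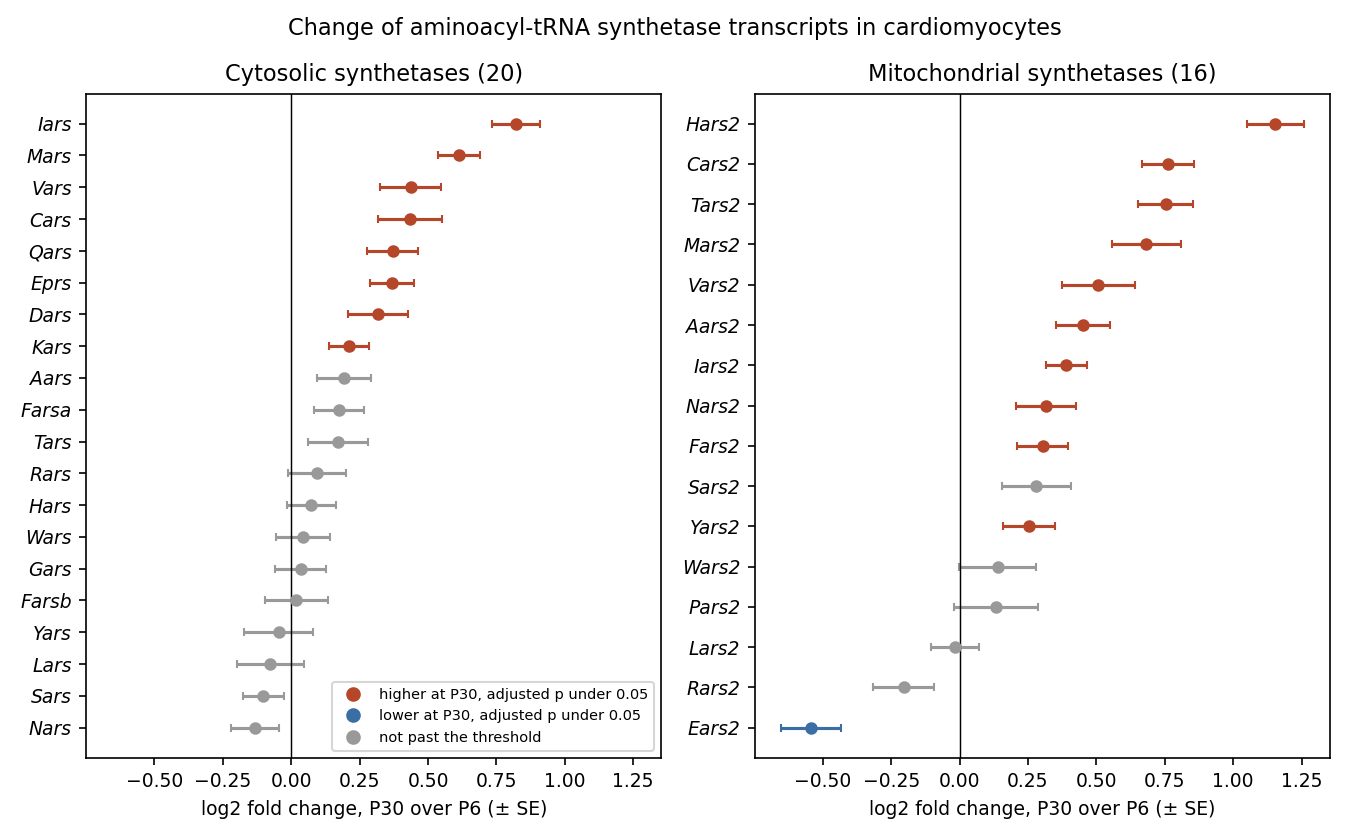
Log2 fold change of each synthetase transcript, P30 over P6, with its standard error (horizontal bars), for the 20 cytosolic genes (left panel) and the 16 mitochondrial genes (right panel), from edgeR. With TMM scaling 18 genes lie to the right past the threshold and Ears2 alone lies to the left past it; with library totals Nars, Sars and Rars2 were also lower.

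Among cytosolic synthetases, Iars and Mars had the largest rises. Iars, the isoleucyl-tRNA synthetase (GRCm38 chr13:49682100-49734267), had 174, 156 and 159 CPM at P30, against 94.8, 98.2, 93.2 and 82.6 CPM at P6. The lowest P30 library was well above the highest P6 library, and the fold change was 1.77 (log2 0.82 ± 0.09 SE, edgeR adjusted p = 6.2e-05). A sequence that is 96.0% identical to Iars over 1656 bases is annotated as Gm4849, and how reads shared with it were counted is not given in the sources used here. Mars, the methionyl-tRNA synthetase (chr10:127296221-127311786), had 102, 108 and 107 CPM at P30, against 68.6, 69.0, 71.4 and 67.3 CPM at P6. The groups did not overlap, with a fold change of 1.53 (log2 0.61 ± 0.08, edgeR adjusted p = 0.00014). Mars shares 68 exonic bases with Ddit3, the stress transcription factor CHOP, which lies on the opposite strand and was also higher, at 22.2 ± 9.34 CPM in P30 and 13.5 ± 3.56 CPM in P6 libraries (log2 0.74 ± 0.28, edgeR adjusted p = 0.049). The part of the shared bases in the Mars value was not tested.

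Vars and Cars rose by less. Vars, which charges valine, had 75.0, 89.4 and 66.3 CPM at P30, against 57.0, 58.4, 58.4 and 53.4 CPM at P6 (log2 0.44 ± 0.11, edgeR adjusted p = 0.0079). The P30 libraries were spread more widely than the P6 libraries, but all lay higher. Cars, the cysteinyl enzyme, had 26.4, 29.3 and 30.0 CPM at P30 and 19.6, 24.1, 20.8 and 19.9 CPM at P6 (log2 0.43 ± 0.12, edgeR adjusted p = 0.011). Here too the groups were apart, by a small margin between P30a and P6b. With library totals both genes stayed positive (0.26 and 0.25) and did not pass.

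Qars, Eprs, Dars and Kars, which charge glutamine, glutamate with proline, aspartate and lysine, completed the cytosolic rises. Their log2 fold changes were 0.37, 0.37, 0.32 and 0.21. With library totals these were 0.19, 0.19, 0.14 and 0.03, and none of the 4 passed. Kars, the second most counted cytosolic gene per kilobase, had 115, 120 and 123 CPM at P30, against 103, 105, 102 and 104 CPM at P6. Its P30 libraries were all higher, yet the difference was the smallest called (edgeR adjusted p = 0.035), and it did not pass in 6 of the 7 fits that left out 1 library, where its adjusted p in edgeR reached 0.117. Dars, also at an adjusted p of 0.035 in edgeR, did not pass in 4 of those 7 fits, without P6c or any single P30 library (up to 0.0898).

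The other 12 cytosolic genes did not pass, and their log2 fold changes ran from -0.13 (Nars) to 0.19 (Aars). Gars, the most counted per kilobase, had 137, 156 and 141 CPM at P30, against 127, 136, 150 and 151 CPM at P6, and the groups overlapped (log2 0.04 ± 0.09). Farsb, the beta subunit of the phenylalanyl enzyme, had the largest adjusted p of the class, with 87.8, 80.8 and 87.8 CPM at P30 and 80.3, 71.1, 88.8 and 97.5 CPM at P6. Its alpha subunit Farsa averaged 42.4 ± 1.98 CPM at P30 and 37.6 ± 1.43 CPM at P6 (SD, n = 3 and 4). The Farsa libraries did not overlap but did not pass (log2 0.18 ± 0.09). Sars, the seryl enzyme, was the reverse case, at 84.7 ± 1.00 CPM in P30 and 90.8 ± 1.08 CPM in P6 libraries, again with no overlap and no call (log2 -0.10 ± 0.07). The remaining 8 uncalled genes (Aars, Hars, Lars, Nars, Rars, Tars, Wars and Yars) had overlapping groups. Aars shares 1326 exonic bases with Exosc6 on the same strand, and the part of these bases in the Aars value was not tested.

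**Figure D2:**
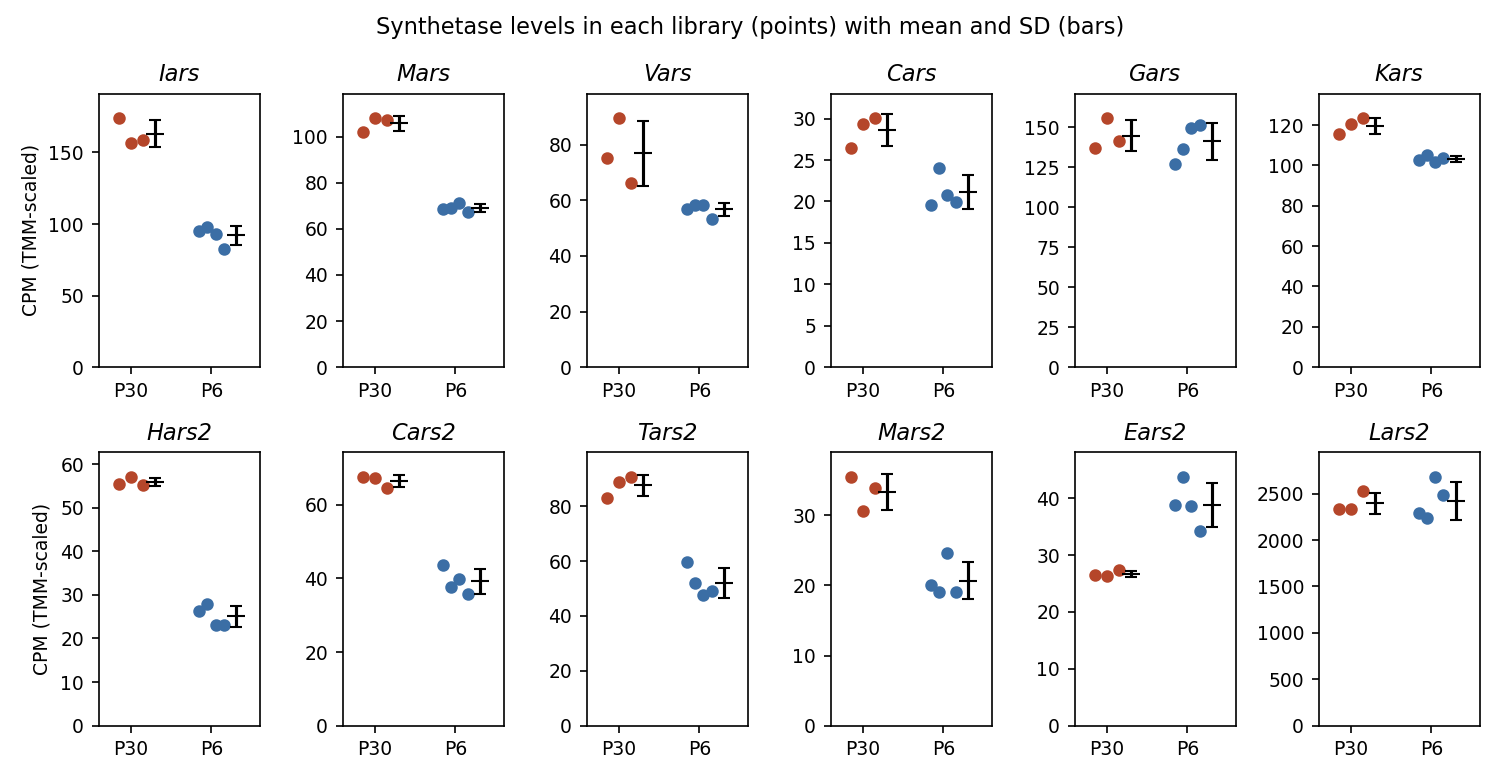
CPM of 12 synthetase transcripts in each P30 library (left points) and P6 library (right points), on axes that start at 0, with the mean and SD beside each group (n = 3 and 4). Gars and Lars2 overlap between the ages, Ears2 lies lower at P30, and the P30 points of the other 9 genes lie above all P6 points.

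The cytosolic genes were also grouped by textbook membership, a grouping made after the values were seen and therefore not tested. Of the 8 synthetase genes of the multisynthetase complex 6 were higher (Iars, Mars, Qars, Eprs, Dars and Kars) and 2 were not called (Lars, -0.08, and Rars, 0.09). Of the 12 cytosolic genes outside the complex 2 were higher, Vars and Cars. The group medians were 0.34 and 0.06, and 26.3% of all tested genes were higher. With library totals 2 of the 8 complex genes were higher (Iars and Mars), and outside the complex none was higher and 2 of 12 were lower (Nars and Sars). By that scaling 2408 of all 12561 tested genes were higher and 4658 lower. Without P6c or any single P30 library, 4 of the 8 complex genes were higher. In those fits 2788 to 3033 of 12408 to 12911 tested genes were higher. By catalytic fold, 5 of the 9 genes of class I and 2 of the 10 of class II were higher, with medians of 0.37 and 0.12; Eprs carries both folds and was not counted. With library totals 2 genes of class I and none of class II were higher. No gene of class II was higher without P6c or any single P30 library. The scaffold genes of the complex did not pass. Aimp1 averaged 30.4 ± 3.38 CPM at P30 and 30.0 ± 5.10 CPM at P6, Aimp2 averaged 51.8 ± 3.04 CPM at P30 and 45.8 ± 4.13 CPM at P6, and Eef1e1 averaged 12.2 ± 1.54 CPM at P30 and 15.6 ± 2.16 CPM at P6.

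Promoters of 26 of the 36 genes (12 cytosolic, 14 mitochondrial) were found by symbol in RefSeq (GRCm38.p6), and the 250 bases before each start were searched on both strands. TGATGNAA, the C/EBP-ATF response element bound by Atf4, occurred in 3 of 12 cytosolic promoters, among them Gars and Tars, in 0 of 14 mitochondrial ones and in 3.53% of all 27025. The E-box CACGTG occurred in 3 cytosolic promoters, among them Farsb and Iars, in 0 mitochondrial ones and in 6.05% of all. The palindromic NRF1 element occurred in none of the 26, beside 0.781% of all. The promoters of these 4 genes are shown because they hold a searched element; of the 4, Iars passed the test (higher), and Gars, Tars and Farsb did not. Each is written 5′ to 3′ on the strand of its gene, upstream of any annotated exon. Capitals mark TGATGNAA, read here as its reverse complement, in the first pair and CACGTG in the last pair. The stretches are chr6:55037751-55038000 (plus strand) for Gars, chr15:11399666-11399908 (minus) for Tars, chr13:49681880-49682099 (plus) for Iars and chr1:78488898-78489147 (minus) for Farsb.
Gars: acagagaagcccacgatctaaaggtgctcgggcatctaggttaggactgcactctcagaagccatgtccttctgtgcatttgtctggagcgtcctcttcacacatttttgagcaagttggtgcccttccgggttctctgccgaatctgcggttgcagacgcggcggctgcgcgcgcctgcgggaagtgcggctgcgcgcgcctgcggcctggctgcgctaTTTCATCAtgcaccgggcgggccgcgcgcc
Tars: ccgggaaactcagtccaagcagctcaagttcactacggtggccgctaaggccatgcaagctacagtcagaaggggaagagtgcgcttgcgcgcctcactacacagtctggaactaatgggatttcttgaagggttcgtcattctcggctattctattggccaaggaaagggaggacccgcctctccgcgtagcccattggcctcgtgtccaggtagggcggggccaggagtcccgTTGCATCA
Iars: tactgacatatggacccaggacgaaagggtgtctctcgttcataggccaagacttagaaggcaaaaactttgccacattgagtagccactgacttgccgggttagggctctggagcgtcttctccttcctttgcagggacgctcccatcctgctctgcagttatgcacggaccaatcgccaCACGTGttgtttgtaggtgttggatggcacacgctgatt
Farsb: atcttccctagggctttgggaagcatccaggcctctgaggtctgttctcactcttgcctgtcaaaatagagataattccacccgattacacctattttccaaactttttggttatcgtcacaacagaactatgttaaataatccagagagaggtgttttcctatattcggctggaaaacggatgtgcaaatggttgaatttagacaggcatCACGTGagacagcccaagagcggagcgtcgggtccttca
Counted from the RefSeq start, the matches begin 30 and 15 bases before it in Gars and Tars, and 69 and 39 bases before it in Iars and Farsb. The stretches shown for Iars and Tars leave out the last 30 and 7 bases before that start, which lie in an annotated exon. A match is a string of letters; binding was not measured.

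Among mitochondrial synthetases, Hars2 was the only one to change at least 2-fold with TMM scaling (log2 0.97 with library totals). Hars2, which charges histidine, had 55.4, 57.1 and 55.2 CPM at P30, against 26.4, 27.8, 23.1 and 23.1 CPM at P6. The 3 P30 libraries were alike and all lay far above the P6 libraries, with a fold change of 2.23 (log2 1.15 ± 0.10, edgeR adjusted p = 2.1e-05). Its cytosolic counterpart Hars starts 197 bases away on the opposite strand, and the 2 genes share 195 exonic bases. Hars itself averaged 68.2 ± 5.35 CPM at P30 and 64.8 ± 2.67 CPM at P6 and did not pass (log2 0.07 ± 0.09). The strand setting of the counting is not given, so reads in the shared bases cannot be assigned.

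Cars2, Tars2 and Mars2 followed. Cars2, the cysteinyl enzyme (chr8:11513977-11550783), had 67.6, 67.4 and 64.6 CPM at P30, against 43.7, 37.7, 39.9 and 35.8 CPM at P6 (log2 0.76 ± 0.10, edgeR adjusted p = 0.00015). Tars2, the threonyl enzyme (chr3:95739976-95760206), had 83.2, 89.0 and 90.7 CPM at P30 and 59.7, 51.8, 47.6 and 49.1 CPM at P6 (log2 0.75 ± 0.10, edgeR adjusted p = 0.00021). For both, the lowest P30 library was far above the highest P6 library, which was P6a. Mars2, the methionyl enzyme (chr1:55237177-55248470), had 35.5, 30.6 and 34.0 CPM at P30 and 20.1, 19.01, 24.6 and 19.1 CPM at P6 (log2 0.68 ± 0.13, edgeR adjusted p = 0.0015). Its groups were apart too, and with its annotated transcript of 11294 bases, the longest of the 36, it had among the lowest levels per kilobase (2.95 CPM per kb at P30 and 1.83 at P6). With the trend of counts on transcript length removed, its log2 fold change was 0.35 (edgeR adjusted p = 0.046), or 0.38 with longest coding transcripts. Cars2 shares 422 exonic bases with Naxd on the opposite strand.

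The smaller mitochondrial rises were those of Vars2 (log2 0.51), Aars2 (0.45), Iars2 (0.39), Nars2 (0.32), Fars2 (0.30) and Yars2 (0.25), which charge valine, alanine, isoleucine, asparagine, phenylalanine and tyrosine. Fars2, the most counted per kilobase after Lars2, had 90.2, 92.2 and 93.6 CPM at P30, against 76.7, 65.6, 75.2 and 80.9 CPM at P6. The P30 libraries lay close together above the P6 range (edgeR adjusted p = 0.019), but the call was lost without P30b or P30c (up to 0.0592). With library totals none of these 6 genes passed, and their log2 fold changes were 0.32 for Vars2, 0.27 for Aars2, 0.21 for Iars2, 0.13 for Nars2, 0.12 for Fars2 and 0.07 for Yars2. With TMM scaling Nars2 and Yars2 were near the threshold (edgeR adjusted p = 0.034 and 0.044). Nars2 did not pass in 6 of the 7 fits that left out 1 library (up to 0.109), passing only without P6c, and Yars2 did not pass in any of them (up to 0.174). Iars2 shares 2034 exonic bases with Rab3gap2 on the opposite strand, which averaged 40.3 ± 4.91 CPM at P30 and 38.6 ± 3.61 CPM at P6. Also with genes on the opposite strand, Fars2 shares 501 exonic bases with Nrn1 and 115 with Lyrm4. Vars2 shares 465 with Gm20483, and Nars2 shares 284 with C230038L03Rik. The part of the shared bases in these values was not tested.

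Ears2, which attaches glutamate to mitochondrial transfer RNA (chr7:122037213-122067263), was the only mitochondrial gene called lower with TMM scaling; with library totals Rars2 was called lower too (log2 -0.38). It had 26.6, 26.3 and 27.3 CPM at P30, against 38.8, 43.7, 38.7 and 34.3 CPM at P6. All 3 P30 libraries were alike and all lay lower, with a fold change of 0.686 (log2 -0.54 ± 0.11, edgeR adjusted p = 0.0024). Ears2 shares 89 exonic bases with Ubfd1 on the opposite strand, which was also lower, at 91.0 ± 4.65 CPM in P30 and 130 ± 15.4 CPM in P6 libraries (log2 -0.51). The part of the shared bases in the Ears2 value was not tested.

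Lars2, the leucyl enzyme (chr9:123366927-123462666), stood apart by its level and did not differ detectably with age. It had 2331, 2331 and 2525 CPM at P30, against 2290, 2236, 2681 and 2488 CPM at P6, and the groups overlapped (log2 -0.02 ± 0.09, edgeR adjusted p = 0.88). Per kilobase of transcript this was 615 CPM at P30 and 622 CPM at P6, while the next mitochondrial gene, Fars2, had 43.3 CPM per kb at P30 and 35.1 at P6, and the highest cytosolic gene, Gars, had 60.8 CPM per kb at P30 and 59.3 at P6. No other annotated transcript matched Lars2 at 95% identity or more over at least 200 bases. Shorter matches, which can also hold a read, were not considered, and their part in the Lars2 level was not tested. The other 4 uncalled genes were Sars2 (log2 0.28 ± 0.13), Wars2 (0.14 ± 0.14), Pars2 (0.13 ± 0.15) and Rars2 (-0.20 ± 0.11), and their groups overlapped.

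Summed over genes, the cytosolic synthetases made up 1854 ± 27.4 CPM at P30 and 1603 ± 16.8 CPM at P6, and the mitochondrial ones without Lars2 made up 854 ± 2.77 CPM at P30 and 646 ± 13.4 CPM at P6 (SD, n = 3 and 4). Scaled by library totals instead, the cytosolic sums overlapped, at 1688 to 1782 CPM at P30 and 1639 to 1733 CPM at P6, while the mitochondrial sums without Lars2 stayed apart, at 782 to 813 CPM at P30 and 648 to 712 CPM at P6. Lars2 by itself held 73.7% ± 0.894 of the mitochondrial synthetase reads at P30 and 78.9% ± 1.63 at P6. The mitochondrial share of all synthetase reads was 63.7% ± 0.800 at P30 and 65.6% ± 1.41 at P6 with Lars2 included. Without Lars2, a choice made after seeing the data, it was 31.5% ± 0.252 at P30 and 28.7% ± 0.359 at P6, and counted per kilobase it was 31.9% ± 0.183 at P30 and 29.2% ± 0.384 at P6. The difference was -1.98 points with Lars2 and 2.83 points without it, so 1 gene set its sign. These shares are descriptions and were not tested.

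Each mitochondrial gene was next set beside a cytosolic gene for the same amino acid, as its share of the reads of the pair. Library scaling does not touch this ratio. Fars2 was paired with Farsa, and both Ears2 and Pars2 with Eprs. Farsb, the other phenylalanyl subunit gene, and Tarsl2, a second threonyl synthetase gene, were left out, and shares with them were not computed. Of 16 pairs, 5 had a higher mitochondrial share in every P30 library than in any P6 library, 4 had a lower one and 7 overlapped. Separation was common in these data: as single genes, 27.8% of all tested genes lay above and 28.8% below without overlap. The share for pairs of other genes was not computed. The exact permutation test over all 35 ways to assign 3 of the 7 libraries to P30, two-sided by the absolute difference of means, gave its smallest possible p of 0.0286 in 8 of the 9 pairs without overlap and 0.114 in the pair of Pars2. Doubling the one-sided exact p gave 0.0571 as the smallest value, so whether a pair passed 0.05 rested on that convention, and no pair passed after doubling. The values were not adjusted over the 16 pairs.

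The histidine pair moved most. Hars2 held 44.9%, 47.6% and 42.9% of its pair at P30, against 30.0%, 29.0%, 26.1% and 26.5% at P6, a difference of 17.2 points with a clear gap. Tars2 held 64.0%, 64.5% and 60.0% at P30, against 56.5%, 54.1%, 50.3% and 50.6% at P6, also without overlap. Nars2, Sars2 and Aars2 gained 5.14, 4.86 and 4.16 points. The part of the exonic bases that Aars shares with Exosc6 in the share of Aars2 was not tested. In the other direction, Ears2 held 11.5%, 10.8% and 11.8% of its pair with Eprs at P30, against 19.1%, 22.1%, 18.4% and 18.2% at P6. Iars2 held 53.7%, 56.3% and 54.3% at P30, against 61.6%, 61.7%, 60.8% and 64.2% at P6. Both genes of the isoleucine pair were higher at P30, with log2 fold changes of 0.39 for Iars2 and 0.82 for Iars. Rars2 was at 41.2% ± 1.36 at P30 and 46.3% ± 1.29 at P6, again without overlap. The shares of Cars2, Fars2, Lars2, Mars2, Vars2, Wars2 and Yars2 overlapped between the ages, with exact permutation p from 0.0857 to 0.8.

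**Figure D3:**
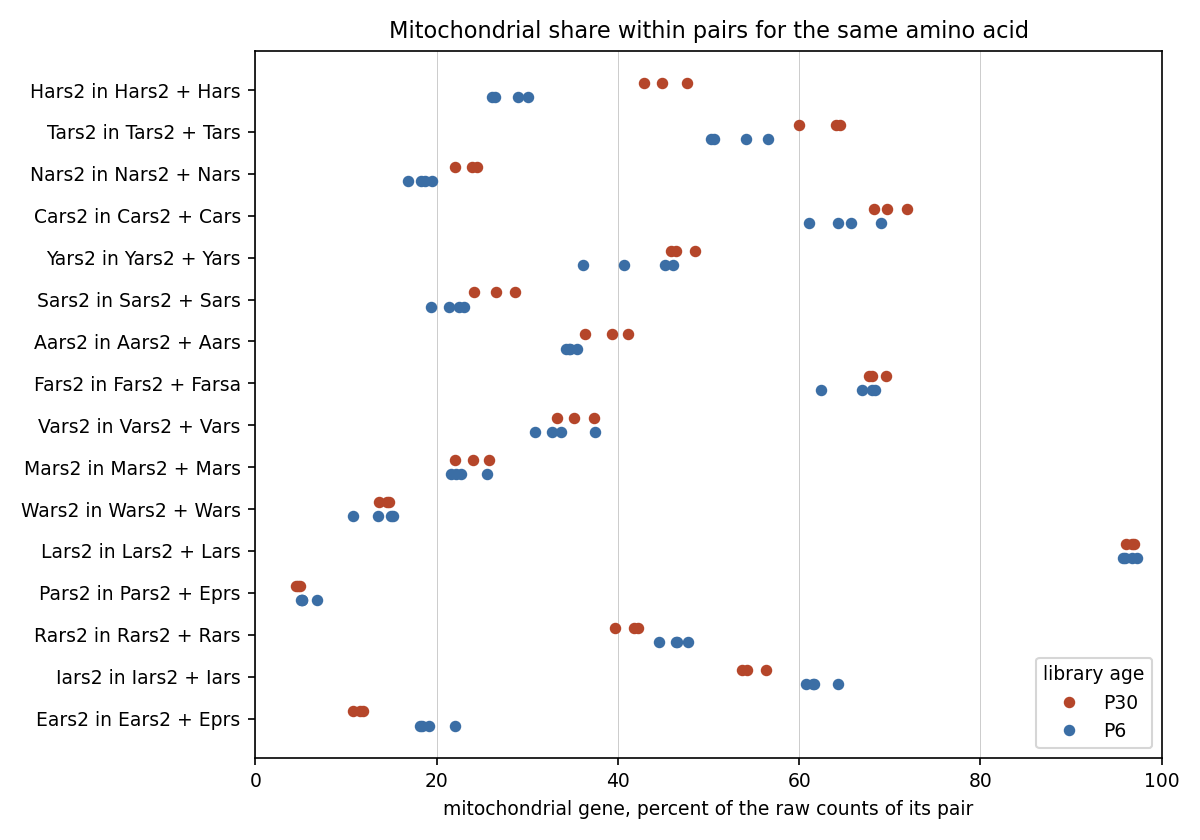
Percent of the raw counts of each same-amino-acid pair that came from the mitochondrial gene, in each P30 library (upper points of a row) and each P6 library (lower points), ordered by the difference. The points of the 2 ages are apart in 9 of the 16 pairs: Hars2, Tars2, Nars2, Sars2 and Aars2 lie higher at P30, and Ears2, Iars2, Rars2 and Pars2 lie lower.

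Genes that work with the synthetases were taken from lists of related pathways. Their counts of called genes are to be read beside the 26.3% higher and 27.8% lower among all tested genes with TMM scaling. Counts with library totals are to be read beside 2408 higher and 4658 lower of 12561 tested genes, with a median of -0.20. Of 9 partners of mitochondrial charging and translation, 6 were higher at P30 and none was lower, with a median log2 fold change of 0.46 (5 higher and 1 lower with library totals). Gfm1, the mitochondrial elongation factor G, averaged 348 ± 16.3 CPM at P30 and 241 ± 18.2 CPM at P6 (log2 0.53 ± 0.09, edgeR adjusted p = 0.00066), and Tufm, which brings charged transfer RNA to the mitochondrial ribosome, averaged 240 ± 2.498 CPM at P30 and 166 ± 1.30 CPM at P6 (log2 0.53 ± 0.07, edgeR adjusted p = 0.00021). In the complex that amidates the product of Ears2, Gatb (listed as Pet112l) was higher (log2 0.62 ± 0.09, edgeR adjusted p = 0.00037), and so was Qrsl1 (0.46 ± 0.12, 0.0078), while Gatc did not pass (0.16 ± 0.09); the last pair was named after the values were seen. The remaining called genes were Mtif2 and Mtif3, and Mtfmt and Tsfm did not pass. Of 16 genes for mitochondrial transfer RNA modification, 6 were higher and 1 lower (median 0.18), and with library totals 4 were higher and 2 lower (median 0.00). Osgepl1, which modifies the base next to the anticodon, had the largest change, at 117 ± 0.195 CPM in P30 and 58.2 ± 7.31 CPM in P6 libraries (log2 1.01 ± 0.10). Trmt5, a methyltransferase, was higher (0.55 ± 0.17), and Trmu, which thiolates the wobble base, was the gene that was lower (-0.50 ± 0.11).

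In the cytosol, the 2 genes for the factor that carries charged transfer RNA to the ribosome moved in opposite directions. Eef1a1 had 61.3, 79.0 and 57.7 CPM at P30, against 429, 391, 455 and 488 CPM at P6 (log2 -2.74 ± 0.14, edgeR adjusted p = 1e-06). Eef1a2, the muscle and neuron form, had 171, 231 and 225 CPM at P30, against 78.6, 68.5, 55.3 and 52.2 CPM at P6 (log2 1.72 ± 0.16, edgeR adjusted p = 2.5e-05). Neither gene overlapped between the ages, and the other 3 eEF1 genes did not pass (with library totals 1 eEF1 gene was higher and 3 lower). Eef1a1 has many processed copies in the mouse genome, so its count is uncertain. Of 8 genes for the complex scaffold and for editing of charged transfer RNA, 2 were higher and 2 lower. These shares were near the 26.3% higher and 27.8% lower of all tested genes. Tarsl2 (0.41 ± 0.08), a second threonyl synthetase, and Aarsd1 (0.52 ± 0.10), which clears mischarged alanyl-tRNA, were higher. Prorsd1 (-0.70 ± 0.15) and Dtd2 were lower. With library totals 2 of the 8 genes were higher and 3 lower, beside 2408 higher and 4658 lower of all 12561 tested genes.

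For transfer RNA production, called genes lay in both directions, in shares to be read beside the 26.3% higher and 27.8% lower among all tested genes. With library totals this background was 2408 higher and 4658 lower of 12561 genes, with a median of -0.20. Of 21 genes of RNA polymerase III transcription, 9 were higher and 6 lower (median 0.05), against 2 higher and 8 lower with library totals (median -0.13). Polr3k, a subunit of the polymerase, had the largest change (-1.09 ± 0.15), Gtf3c4 (0.78 ± 0.14) and Maf1, the repressor of the polymerase (0.29 ± 0.09), were higher, and Gtf3c2 was lower (-0.22 ± 0.08). Of 23 tested genes of processing and export, 5 were higher and 5 lower (median 0.05), against 1 higher and 9 lower with library totals (median -0.13). Among them were Xpo5, an exporter of small RNAs (0.94 ± 0.11), and Elac2, which trims the 3′ end (0.33 ± 0.10), both higher, and Tsen34, a subunit of the splicing endonuclease, which was lower (-0.63 ± 0.09). Rpp25, a ribonuclease P subunit, averaged 1.57 ± 0.211 CPM at P30 and 12.0 ± 8.15 CPM at P6 (log2 -2.93 ± 0.58), with a wide spread among the P6 libraries.

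Atf4, the transcription factor that induces cytosolic synthetase genes when amino acids are short, averaged 86.7 ± 12.2 CPM at P30 and 85.7 ± 11.8 CPM at P6 and did not pass. Of 27 tested genes of its amino acid response, 4 were higher and 14 lower, with a median log2 fold change of -0.79 (3 higher and 15 lower with library totals). Among all tested genes 26.3% were higher and 27.8% lower with TMM scaling. With library totals 2408 of the 12561 tested genes were higher and 4658 lower. Slc38a2, an amino acid transporter, averaged 662 ± 47.1 CPM at P30 and 1268 ± 161 CPM at P6 (log2 -0.94 ± 0.11, edgeR adjusted p = 0.00011), and Eif4ebp1, a brake on translation initiation, averaged 81.7 ± 2.03 CPM at P30 and 230 ± 18.2 CPM at P6 (log2 -1.49 ± 0.09, edgeR adjusted p = 2.4e-06). Phgdh, the first enzyme of serine synthesis, averaged 0.149 ± 0.0418 CPM at P30 and 3.33 ± 1.14 CPM at P6 (log2 -4.47 ± 0.50), and Vldlr was the most counted gene that was higher (0.63 ± 0.09). A total of 3 counts corresponded to between 0.155 and 0.193 CPM in the P30 libraries, so Phgdh was close to the detection limit there. Of 8 genes of the eIF2 kinases and their partners, 2 were higher, Gcn1l1 (0.55 ± 0.15), which activates the amino acid sensor Gcn2, and Eif2ak1 (0.27 ± 0.09), and 1 was lower, Eif2s1 (-0.63 ± 0.12), the eIF2 alpha subunit; with library totals none was higher and 2 were lower.

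**Figure D4:**
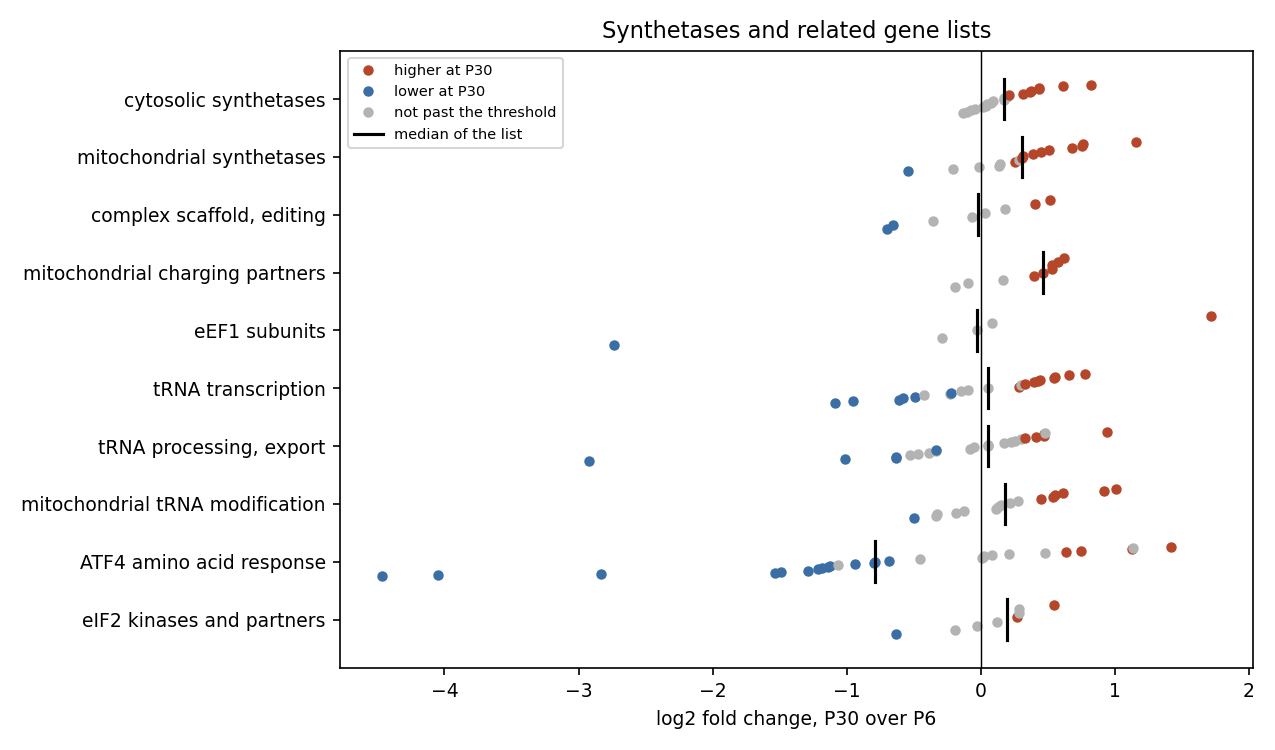
Log2 fold change, P30 over P6, of each tested gene (points) in the 2 synthetase classes and 8 related lists, with the list median as a vertical bar; coloured points passed edgeR's test over all genes. The medians were 0.17 and 0.31 for the cytosolic and mitochondrial synthetases, 0.46 for mitochondrial charging partners and -0.79 for the Atf4 response, with TMM scaling.

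The authors' deposited table of their own comparison called 8 cytosolic genes higher and 0 lower, and 10 mitochondrial genes higher and 1 lower, at an adjusted p under 0.05. In the authors' deposited table the sign was the same as in the edgeR fit for 20 of 20 cytosolic and 16 of 16 mitochondrial genes.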

How the data were processed

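Polyadenylated RNA of sorted cardiomyocytes was copied with SMART-Seq v4 and made into Nextera XT libraries, per the labels. The authors deposited a table of raw read counts; the submitters' processing notes list STAR 2.5.3a, featureCounts, Subread 1.5.2, CASAVA 1.8 and mm10. Strand setting, annotation and handling of multi-mapping reads: not given in the sources used here. A second table deposited by the authors holds a DESeq2 comparison; its log2 fold changes and adjusted p-values are used here, per the file headers, and its fold changes were found to run P30 over P6 when set beside the counts. The labels give collection at P14 in one text and P6 or P30 in titles, ages and design; the last were used. Count columns carry letters that no label ties to a title number, so the age in a column's name set its group.

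Counts were tested in edgeR 4.0.16 (R 4.3.3): filterByExpr, TMM, a quasi-likelihood fit of age and Benjamini-Hochberg adjustment over 12561 genes, threshold 0.05. The standard error of a fold change was its size divided by the square root of the F statistic. The biological coefficient of variation was 18.3%. No library duplicated another (chi-square per gene at least 12.3 between libraries of an age). The procedure was also run on simulated counts in which only a small part of the genes changed, with results not given here. In these data 54.1% of tested genes were called, so that run did not test scaling under such broad change. Alternatives were DESeq2 1.42.0, other scalings, no filter, a transcript length correction, a column-letter block and leaving out each library. Positions, lengths and overlaps came from GENCODE M21 (GRCm38); a gene's length was that of its longest APPRIS principal transcript. This definition replaced the longest coding transcript after results had been seen, and both are reported as alternatives.

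The members and lists were chosen with earlier results of these data known. Values in every library are printed for the 4 largest rises and falls past the threshold in each class, the 2 most counted genes per kilobase and the gene with the largest adjusted p. Genes named in each related list, with a mean or a fold change, are the 2 most counted genes in the prevailing direction, the largest change and the most counted gene in the other direction; other genes of these lists were named after their values were seen. The cytosolic partners in the pairs were fixed after the counts had been seen. The promoter sequence of 1 gene is not reported here.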

Additional observations from a re-analysis of the deposited data

Results flagged for a closer look

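The share of Pars2, the mitochondrial prolyl-tRNA synthetase, in its pair with Eprs was 4.74%, 4.47% and 4.92% in the P30 libraries, against 5.13%, 5.05%, 5.14% and 6.79% in the P6 libraries. The library P6d lay far from the other 3 of its age: its gap to the nearest of them was 0.947 of the range of the group, more than Dixon's test at 95% allows for 4 libraries. Pars2 itself had 11.2 CPM in P6d, beside 8.86, 8.22 and 9.31 CPM in P6a to P6c. This was 1 of 52 values looked at in this way (36 gene levels and 16 pair shares in the P6 libraries), and chance flags about 1 value in 20.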

How the results depend on the processing

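Scaling by library totals moved the counts most: 2 cytosolic genes were higher and 2 lower, 4 mitochondrial genes were higher and 2 lower, and 2408 of all genes were higher and 4658 lower. Of the 19 calls 7 were kept, and the new calls (Nars, Sars and Rars2) were all lower. The uncalled genes Farsa (-0.0077), Farsb (-0.16), Gars (-0.14), Hars (-0.11), Rars (-0.0855), Tars (-0.0117), Wars (-0.14), Pars2 (-0.0472) and Wars2 (-0.0393) changed sign with library totals, and Lars2 with median-of-ratios size factors (0.0003). No called gene changed sign in any of the 14 alternatives.

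Leaving out 1 library at a time gave 6 to 9 cytosolic genes higher and 0 lower, 7 to 9 mitochondrial genes higher and 1 lower, and 5 to 6 pairs higher and 4 lower without overlap. Sign changes under it were limited to the uncalled genes Farsb (-0.0592 to 0.0854), Gars (-0.0171 to 0.0744), Wars (-0.0146 to 0.0869), Yars (-0.115 to 0.0525) and Lars2 (-0.0561 to 0.0313). Removing the length trend kept 18 of 19 calls with APPRIS principal transcripts (8 cytosolic and 10 mitochondrial genes higher) and all 19 with longest coding transcripts, a version added after seeing the data (9 and 11 higher). DESeq2 and size factors kept all 19 calls, and testing without a filter kept 16 (Kars, Nars2 and Yars2 were lost). The mitochondrial share of all synthetase reads differed by -1.98 points with Lars2, 2.83 points without it and 2.71 points per kilobase without it; both versions without it were added after seeing the data.

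No label says that the column letters pair libraries across the ages. Same-letter deviations correlated at -0.103, 0.089 and -0.204, and different-letter ones at -0.187 to 0.249. With so few libraries, these values cannot show whether same-letter libraries were paired. A replicate block on the column letters gave 7 cytosolic genes higher, 8 mitochondrial genes higher and 1 lower. With this block 2895 of all genes were higher and 3077 lower, and the sign of the uncalled Wars turned (-0.0054). The lowest depth, 98 reads for Pars2, limits the precision of that gene most. The causes of these changes were not tested.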
